A study of Mus musculus with 16 samples.

Results

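The genes described here encode kinases and phosphatases that act on tau, the microtubule-binding protein that becomes hyperphosphorylated and aggregates in tauopathies. They were taken by gene symbol, as 10 of the 30389 genes in the count tables. The glycogen synthase kinase 3 pair is Gsk3a and Gsk3b, Cdk5 is a proline-directed kinase and Cdk5r1 its activator p35, Fyn is a Src-family tyrosine kinase, Dyrk1a is a dual-specificity kinase and Csnk1d is casein kinase 1 delta. Ppp2ca, Ppp2r1a and Ppp2r2b encode a catalytic, a scaffold and a regulatory B subunit of protein phosphatase 2A (PP2A).

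The data are Drop-seq libraries from the cerebral cortex of 17-month-old mice, 1 library per mouse. Drop-seq captures single cells in droplets with barcoded beads and counts transcripts by unique molecular identifiers (UMIs). THY-Tau22 mice carry a transgene for human 4-repeat tau with the G272V and P301S mutations, driven in neurons by the Thy1.2 promoter, and the line was kept by breeding heterozygous males to C57Bl6/J mice. WT mice are littermates without it. Among the males, 2 tables with opposite genotypes, WT replicate 3 and THY-Tau22 replicate 4, had 2952 of 3000 barcodes in common and were left out. There remained 6 WT mice, 3 of each sex, and 8 THY-Tau22 mice, of which 3 were male and 5 female. Levels are given in CPM, the UMIs of a gene per 1000000 UMIs of a library or of a cell class in it. These 14 libraries held 24578 cells with 200 to 7000 detected genes, 1121 to 2526 per library, and 755945 to 2089367 UMIs per library in those cells. The 10 genes together took 11457 of 17735830 UMIs. No row of the tables was named for human MAPT, so the transgene itself was not measured here.

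Tau carries many phosphorylation sites, and its phosphorylation at any time reflects the balance of kinases that add phosphate and phosphatases that remove it. GSK3 and CDK5 are proline-directed serine and threonine kinases, CDK5 is inactive until it binds p35 or the related p39, and Fyn phosphorylates a tyrosine near the tau amino terminus. PP2A is the main tau phosphatase of the brain and works as a trimer, in which the B subunit directs the catalytic subunit to its substrates. RNA levels do not measure the activity of these enzymes.

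On GRCm38, the build that corresponds to the mm10 build in the submitters' processing notes, the GENCODE annotation places Cdk5r1 at chr11:80477023-80481184 on the plus strand and Cdk5 at chr5:24418241-24423530 on the minus strand, with no other annotated gene overlapping either. Fyn lies at chr10:39368855-39565381 on the plus strand and overlaps 2 annotated antisense genes, Gm16364 and Gm16365, and the minus-strand pseudogene Gm6963. Gsk3a, at chr7:25228258-25237851 on the minus strand, overlaps the antisense gene 9130221H12Rik. Gsk3b lies at chr16:38089001-38246084 and Ppp2r1a at chr17:20945311-20965916, both on the plus strand. Gsk3b overlaps the small nucleolar RNA genes Gm25617, on the same strand, and Gm27931, on the opposite strand. No other annotated gene overlaps Ppp2r1a. Whether the counting used strand is not given in the sources used here, so reads of Fyn and Gsk3a cannot be told apart from those of their antisense partners. The same holds for Gsk3b, with Gm27931, for Csnk1d, with the antisense gene Gm28192, and for Ppp2r2b, with 4933407I08Rik. It also holds for Ppp2ca, with the opposite-strand noncoding RNA genes Gm26551 and 9430098F02Rik.

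Cells were assigned to classes by clustering on other genes and naming the clusters from marker lists. The classes are microglia-like, astrocyte-like, oligodendrocyte-like, endothelial-like, neuron-like and oligodendrocyte precursor (OPC)-like cells, and are called below by these names without the suffix. In the 14 libraries they held 6850 microglia, 4544 astrocytes, 4318 oligodendrocytes, 3357 endothelial cells, 1214 neurons and 1120 OPCs. A library contributed 25 to 204 neurons with 22105 to 187237 UMIs, and 19 to 132 OPCs with 19049 to 114126 UMIs, so that 1 UMI is worth many CPM in these classes. The neuronal markers separated neurons from the other classes but were not absent elsewhere. The synaptic gene Snap25 had a median of 1578 CPM in neurons, 102 in OPCs and 11.3 to 20.8 in the other 4 classes. The largest microglia cluster was led by activation genes, among them Il1a, Ccl4, Ccl3 and Tnf.

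Between classes, the clearest differences were in Cdk5r1, Fyn and Ppp2r2b. Cdk5r1 was highest in neurons, Fyn in OPCs, and Ppp2r2b in astrocytes, OPCs and neurons, while Gsk3b, Csnk1d, Ppp2ca and Ppp2r1a were detected in every class with smaller differences between classes. Each class was compared with the mean of the other 5 by edgeR, with the library as a block, and a gene was called if its adjusted p was under 0.05 and it differed by 0.5 or more on the log2 scale in either direction. Of 5047 genes tested, 7 were members. Gsk3a, Cdk5 and Dyrk1a did not pass the filter on low counts. The classes were built from other genes of the same cells, so these tests describe how UMIs were distributed and are not independent of class membership.

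**Figure D1:**
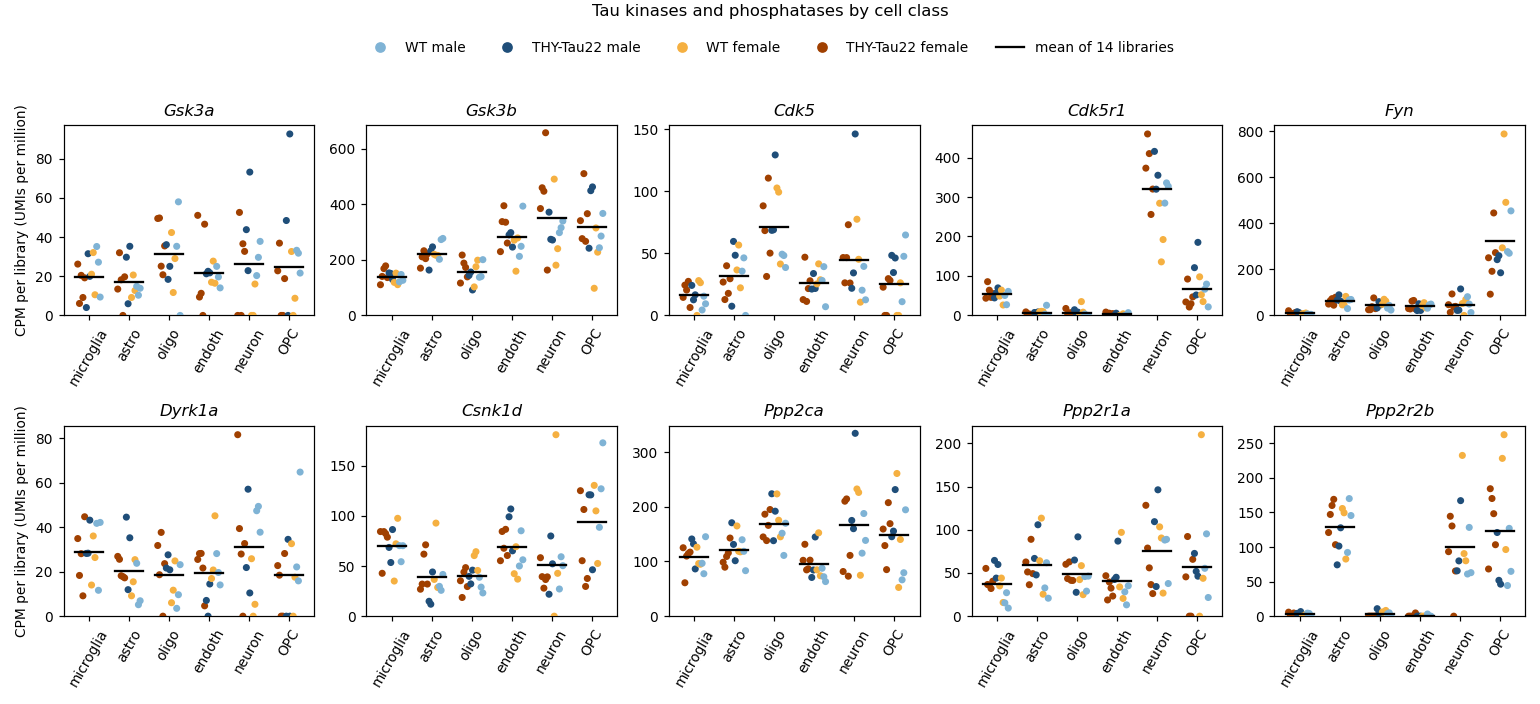
Level of each gene in each of 6 cell classes (x axis), in CPM per library (y axis, linear, a scale per gene); each point is 1 of 14 libraries, coloured by group, and the bar is their mean. Cdk5r1 stood highest in neurons with a mean of 319 CPM, Fyn in OPCs with 322 CPM, and Ppp2r2b was near 0 in microglia, oligodendrocytes and endothelial cells.

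Gsk3b, the GSK3 isoform most often studied as a tau kinase, was detected in every class of every library. In neurons it lay at 163 CPM in the lowest library, 328 at the median and 658 in the highest. In OPCs the values were 97.8, 300.4 and 511 CPM, in endothelial cells 159, 275 and 395, and in astrocytes 163, 218 and 277. It was lower in oligodendrocytes, at 91.8, 150.4 and 217 CPM, and in microglia, at 111, 138 and 178 CPM. The ranges of all classes overlapped. Against the other 5 classes Gsk3b was higher in neurons, by 0.68 ± 0.10 on the log2 scale (SE, edgeR adjusted p = 4.11e-10), and lower in microglia, at -0.72 ± 0.09 (edgeR adjusted p = 7.04e-14), and oligodendrocytes, at -0.59 ± 0.09 (edgeR adjusted p = 2.96e-09). The neuron difference was 0.44 with no filter on low counts, under the fold threshold. The oligodendrocyte value was -0.50 without WT male replicate 1, -0.44 with no filter and -0.34 with cells named one by one from marker UMIs, each under the fold threshold. In the order of mean levels, neurons and OPCs differed by 0.44 ± 0.14 on the log2 scale, under the fold threshold, and the step of 0.64 ± 0.11 from astrocytes to oligodendrocytes was the only called difference between neighbours (edgeR adjusted p = 1.2e-07).

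Gsk3a, the second GSK3 isoform, was sparse, with 18 UMIs in OPCs and 33 in neurons over all 14 libraries. Its mean level was 31.2 ± 15.9 CPM in oligodendrocytes (SD, n = 14), against 16.8 ± 10.0 in astrocytes and 19.4 ± 10.2 in microglia. In oligodendrocytes the libraries ran from 0 to 57.9 CPM with a median of 32.1, a range that overlaps those of the other classes. When the filter on low counts was dropped, which brought 27624 genes into the test, Gsk3a was called higher in oligodendrocytes at 0.75 ± 0.20 on the log2 scale (edgeR adjusted p = 0.000807, with 12.0% of all genes called higher there).

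Cdk5 itself did not stand highest in neurons. In oligodendrocytes it lay at 31.4 CPM in the lowest library, 68.5 at the median and 129 in the highest. In neurons it lay at 10.7, 36.9 and 146 CPM, on 49 UMIs in all, and in microglia at 0, 16.1 and 28.1 CPM. The lowest oligodendrocyte library was therefore above the highest microglia library, while oligodendrocytes and neurons overlapped. With no filter on low counts Cdk5 was called higher in oligodendrocytes, at 1.53 ± 0.16 on the log2 scale (edgeR adjusted p = 6.02e-20), and lower in microglia, at -0.86 ± 0.21 (edgeR adjusted p = 0.000163, with 11.2% of all genes called lower there). In neurons it was not called, at 0.23 ± 0.24.

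Cdk5r1, which encodes p35, 1 of the activators of Cdk5, had the sharpest pattern. In neurons it lay at 136 CPM in the lowest library, 324 at the median and 460 in the highest, on 400 UMIs in all. In OPCs the values were 21.3, 52.2 and 185 CPM, and in microglia 26.4, 53.0 and 85.5 CPM, with at least 7 UMIs in every microglia library. No microglia library reached the lowest neuron library. Astrocytes and oligodendrocytes averaged 6.79 and 7.39 CPM, and endothelial cells had 7 UMIs in all, with 8 of 14 libraries at 0. Against the other 5 classes the log2 fold change was 4.52 ± 0.15 in neurons (edgeR adjusted p = 3.99e-65), 1.44 ± 0.17 in microglia (edgeR adjusted p = 1.56e-13) and 1.13 ± 0.27 in OPCs (edgeR adjusted p = 0.000187). The last call was lost when cells with UMIs from markers of a second class were left out, at 0.87 (edgeR adjusted p = 0.194). Neurons exceeded OPCs by 2.83 ± 0.21 (edgeR adjusted p = 4.13e-26), OPCs and microglia were not called different at -0.26 ± 0.26, and microglia exceeded oligodendrocytes by 2.73 ± 0.27 (edgeR adjusted p = 4.71e-18).

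UMIs of neuronal markers were also found in the other classes, so these markers are given beside the microglial level of Cdk5r1. The median Cdk5r1 level in microglia was 53.0 CPM against 324 in neurons, while that of Snap25 was 20.8 against 1578 CPM and that of the synaptic vesicle gene Syt1 was 21.7 against 2693 CPM. Astrocytes, with a median Syt1 level of 27.7 CPM, had a median Cdk5r1 level of 6.69 CPM. The 12 neuron markers summed to between 117 and 306 CPM in microglia libraries, against 17652 to 37512 CPM in neuron libraries. The part of neuronal RNA in the microglial Cdk5r1 level was not tested.

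Fyn, the tyrosine kinase, was highest in OPCs. It lay there at 92.2 CPM in the lowest library, 271 at the median and 787 in the highest, on 252 UMIs. In astrocytes the values were 29.7, 65.4 and 89.4 CPM, in neurons 0, 42.9 and 115, and in oligodendrocytes 23.2, 40.6 and 76.1. The lowest OPC library lay above every astrocyte and oligodendrocyte library. Microglia had the least Fyn, at 2.56, 7.51 and 20.4 CPM, which is 1 to 7 UMIs per library. The log2 fold change against the other 5 classes was 2.68 ± 0.15 in OPCs (edgeR adjusted p = 2.58e-38), -2.74 ± 0.20 in microglia (edgeR adjusted p = 2.05e-27) and 0.58 ± 0.15 in astrocytes (edgeR adjusted p = 0.000275). The OPC value lay between 1.68 and 3.17 over the 25 settings in which Fyn was tested, the main one included, and was called in each. Named one by one from marker UMIs, 65.5% of the cells of the OPC class kept that name. The astrocyte value was 0.35 with total UMIs as the library size and 0.33 with cells named one by one from marker UMIs, both under the fold threshold. Between OPCs and astrocytes, the next class, the difference was 1.74 ± 0.17 (edgeR adjusted p = 7.24e-18), and among astrocytes, neurons, oligodendrocytes and endothelial cells no neighbours were called different. The endothelial value of -0.52 ± 0.18 was called (edgeR adjusted p = 0.00881), and was -0.48 without THY-Tau22 female replicate 1, -0.46 without THY-Tau22 male replicate 3 and -0.49 without WT female replicate 3, each under the fold threshold. With no filter on low counts it was -0.42 (edgeR adjusted p = 0.0971) and with cells named one by one from marker UMIs -0.34 (edgeR adjusted p = 0.0684), and other choices of library size, cells and tables gave -0.49 to -0.39.

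Dyrk1a, which primes tau for GSK3, was too sparse for the filter, with 17 UMIs in OPCs and 130 in microglia. Its mean was 31.2 ± 23.4 CPM in neurons (SD, n = 14) and 29.1 ± 12.1 in microglia, and between 18.4 and 20.2 CPM in the other 4 classes. With no filter it was called higher in microglia, at 0.74 ± 0.18 on the log2 scale (edgeR adjusted p = 0.000234, with 19.3% of all genes called higher there). Csnk1d, casein kinase 1 delta, averaged 94.2 ± 43.1 CPM in OPCs (SD, n = 14), 70.0 ± 17.9 in microglia, 69.0 ± 20.9 in endothelial cells and 39.3 ± 22.2 in astrocytes. No neighbours in this order were called different. Against the other 5 classes it was called higher in microglia, at 0.56 ± 0.13 (edgeR adjusted p = 4.03e-05), and lower in oligodendrocytes, at -0.54 ± 0.16 (edgeR adjusted p = 0.00155). Both values were near the fold threshold. The microglia value was 0.48 without THY-Tau22 male replicate 1, 0.50 without THY-Tau22 male replicate 3 and 0.46 without WT female replicate 3. The oligodendrocyte value was between -0.49 and -0.45 without WT male replicate 1, 2 or 4 or THY-Tau22 female replicate 2 or 3, again under the fold threshold. With no filter on low counts it was -0.39 and missed the threshold on p as well (edgeR adjusted p = 0.0783).

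Among the PP2A subunits, the regulatory subunit varied most between classes. Ppp2r2b, which encodes the B55 beta subunit, lay in astrocytes at 74.2 CPM in the lowest library, 137 at the median and 170 in the highest. In OPCs the values were 44.3, 112 and 262 CPM and in neurons 0, 85.3 and 233 CPM. It was nearly absent elsewhere, with 11 UMIs in microglia, 10 in oligodendrocytes and 2 in endothelial cells over all 14 libraries, and with 6, 7 and 12 libraries at 0. The lowest astrocyte and OPC libraries exceeded every library of those 3 classes. The log2 fold change was 3.59 ± 0.16 in astrocytes (edgeR adjusted p = 1.41e-49), 3.05 ± 0.22 in neurons (edgeR adjusted p = 5.26e-29) and 2.76 ± 0.24 in OPCs (edgeR adjusted p = 8.39e-22). The 3 low classes were called lower, but with so few UMIs the size of their fitted fold changes depends on the model.

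Ppp2ca, the main catalytic subunit, was detected in every library of every class. It lay in oligodendrocytes at 111 CPM in the lowest library, 168 at the median and 224 in the highest, in neurons at 73.1, 167 and 334 CPM, and in endothelial cells at 63.3, 85.6 and 152 CPM. These ranges overlapped. Ppp2ca was called higher in oligodendrocytes at 0.50 ± 0.10 on the log2 scale (edgeR adjusted p = 1.57e-06), at the fold threshold itself, and lower in endothelial cells at -0.62 ± 0.12 (edgeR adjusted p = 9.43e-07). The oligodendrocyte call was lost in DESeq2, at 0.42, and the endothelial one in cells with at least 500 genes, at -0.39. Ppp2r1a, the scaffold on which the trimer assembles, averaged 75.1 ± 39.3 CPM in neurons (SD, n = 14), 59.1 ± 28.1 in astrocytes, 48.6 ± 17.8 in oligodendrocytes and 36.8 ± 16.5 in microglia. It was called higher in neurons, at 0.71 ± 0.19 (edgeR adjusted p = 0.000563), and at 0.46 with no filter on low counts it was not. No neighbours in its order of levels were called different.

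By class, 4 of the 7 members tested were called higher in neurons, where 28.6% of all genes were, and the median log2 fold change of the 7 was 0.68 against -0.11 over all genes. The 4 were Cdk5r1, Ppp2r2b, Ppp2r1a and Gsk3b. The count of 4 depended on the filter on low counts. With no filter, Cdk5r1 and Ppp2r2b were the only members called higher in neurons, where 15.1% of all genes were. Ppp2r1a, at 0.46, and Gsk3b, at 0.44, were then under the fold threshold. With the filter, no member was called lower in neurons, where 29.6% of all genes were. None of the 7 was lower there at an unadjusted p under 0.05 by edgeR or called lower by DESeq2. With no filter, Csnk1d was lower in neurons at -0.47 ± 0.22 but was not called (edgeR unadjusted p = 0.0293, edgeR adjusted p = 0.0957). In OPCs 3 of the 7 were called higher (22.2% of all genes) and 0 lower (20.3%), with a median of 0.45 against -0.09. Of the 7, 0 were lower there at an unadjusted p under 0.05 by edgeR or called lower by DESeq2. With no filter, Cdk5 (-0.83), Dyrk1a (-0.78), Gsk3a (-0.64) and Ppp2ca (-0.40) were lower in OPCs at that unadjusted p by edgeR. None of them was called lower (6.05% of all genes), while Cdk5r1, Fyn and Ppp2r2b were called higher (8.25%). With the filter, microglia had 2 higher (29.2%) and 3 lower (36.7%), astrocytes 2 higher (27.1%) and 1 lower (29.4%), and oligodendrocytes 1 higher (24.3%) and 4 lower (34.7%). In endothelial cells 0 were called higher (26.9%) by edgeR or by DESeq2, 1 was higher at an unadjusted p under 0.05, Gsk3b, and 4 were called lower (33.8%). Taking total UMIs as the library size moved the median of all genes by 0.475 in OPCs and by -0.228 in astrocytes on the log2 scale. It left 5 members called higher in OPCs and 1 in astrocytes.

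Between single classes, Cdk5r1 was called different in 13 of the 15 pairs of classes, Fyn in 12, Ppp2r2b in 10, Gsk3b in 8, Csnk1d in 7, and Ppp2ca and Ppp2r1a in 6 each. Of all genes, the share called was 65.9% between microglia and astrocytes, 63.9% between microglia and oligodendrocytes, 52.5% between microglia and endothelial cells, 70% between microglia and neurons, and 64.1% between microglia and OPCs. For astrocytes it was 56.7% against oligodendrocytes, 62.4% against endothelial cells, 62% against neurons and 45.2% against OPCs. For oligodendrocytes it was 56% against endothelial cells, 66.3% against neurons and 53.2% against OPCs, for endothelial cells 67.5% against neurons and 58.7% against OPCs, and for neurons against OPCs 46.5%.

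Within 3 pairs of paralogs, shares of summed UMIs describe which copy a class used, and do not depend on the scaling of libraries. The 2 copies of a pair can share reads, and how such reads were counted is not given in the sources used here. Gsk3a made up 17.9% of the Gsk3a and Gsk3b UMIs in oligodendrocytes, 13.1% in microglia and 6.59% to 8.08% in the other 4 classes. Over oligodendrocyte libraries the share ran from 0% to 29.8%, so single libraries overlapped between classes. Cdk5r1 took 400 of the 486 UMIs it shared with Cdk5r2, which encodes the p39 activator, in neurons (82.3%), and 216 of 221 in microglia (97.7%). The median share over libraries was 83.1% in neurons, with 60.0% to 95.0%, and 100% in microglia, with 89.7% to 100%. Ppp2ca took between 89.0% and 95.5% of the UMIs of the 2 PP2A catalytic genes, Ppp2ca and Ppp2cb, in every class.

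**Figure D2:**
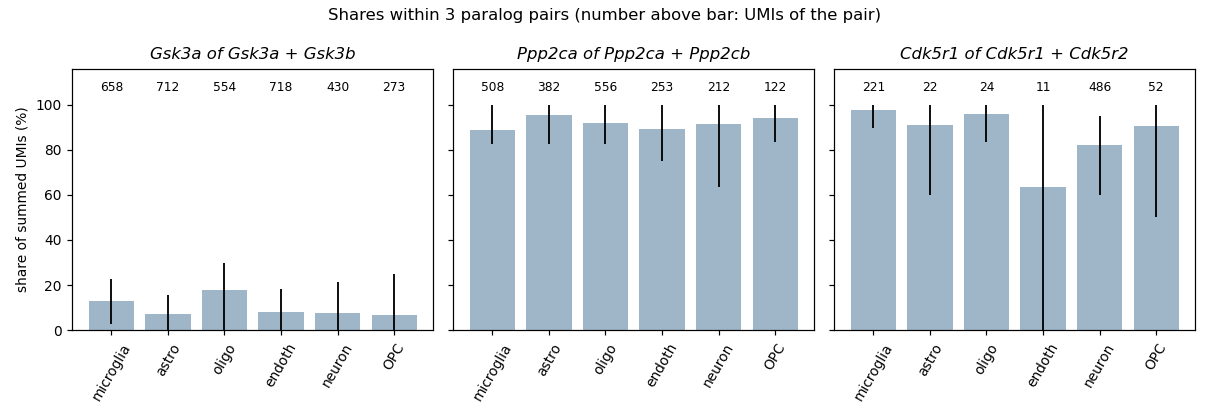
Share of 1 paralog in the summed UMIs of each pair (y axis, percent) by cell class (x axis): bars pool 14 libraries, vertical lines span the lowest to the highest library with UMIs of the pair, and the number above each bar is the pair's UMIs. Cdk5r1 held 82.3% in neurons and 97.7% in microglia; the endothelial value of that pair rests on 11 UMIs.

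The smaller classes are given pooled over the 14 libraries, with no spread. In 867 mural cells, the contractile cells of vessels, Gsk3b lay at 265 CPM, Fyn at 54.8 and Cdk5r1 at 6.29. In 330 macrophages Gsk3b lay at 134 CPM, and Cdk5r1 and Fyn had 6 UMIs each. In 151 fibroblasts Gsk3b lay at 259 CPM and Cdk5r1 had 0 of 270757 UMIs. A further 1827 cells were in clusters that stayed unnamed, in which Gsk3b lay at 192 CPM and Cdk5r1 at 33.2.

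The genes whose log2 CPM followed each member most closely over the 84 library and class sums are given as a description only, since these points share libraries and classes. For Cdk5r1 they were Rtn1 (Pearson r = 0.881) and Akap5 (r = 0.869), for Ppp2r2b they included Gpm6a (r = 0.930), and for Fyn Xylt1 (r = 0.796) and Cdo1 (r = 0.782). Gsk3b was closest to Plcb1 (r = 0.778) and Runx1t1 (r = 0.697). Ppp2ca was closest to Npepps (r = 0.654) and Trim2 (r = 0.579), and Ppp2r1a to Vamp2 (r = 0.595) and Aldoa (r = 0.554). The closest to Csnk1d were Fosb (r = 0.541) and Nr4a1 (r = 0.501), both immediate early genes.

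Other genes of the same pathway were taken from lists of further tau kinases, PP2A subunits and regulators, other tau phosphatases, and calpains with their inhibitor calpastatin. In neurons, 12 of 23 other tau kinases tested were called higher and 3 lower, against 28.6% and 29.6% of all genes, with the largest differences in the calcium and calmodulin-dependent kinases Camk2b, at 5.67 ± 0.13 on the log2 scale (edgeR adjusted p = 5.97e-87), and Camk2a, at 5.31 ± 0.13 (edgeR adjusted p = 7.12e-83). Of the 6 other tau phosphatases tested, 5 were called higher in neurons. In microglia 7 of 23 kinases were called higher and 8 lower, which is near the 29.2% and 36.7% of all genes. The higher ones were led by the immune-receptor kinase Syk at 5.20 ± 0.20 (edgeR adjusted p = 9.66e-59), Nuak1 at 3.17 ± 0.14 and Sgk1 at 3.02 ± 0.12. In oligodendrocytes, where 24.3% of all genes were called higher and 34.7% lower, 4 of 23 kinases were higher and 11 lower. Of 14 PP2A subunits and regulators 4 were called higher there and 1 lower, led by Ppp2r2c at 3.39 ± 0.17 (edgeR adjusted p = 2.56e-44) and Ppp2r3a at 2.28 ± 0.09 (edgeR adjusted p = 3.46e-56). Ppp2r2c, another gene for a B55 subunit, was also called higher in neurons, at 3.81 ± 0.20 (edgeR adjusted p = 7.87e-42). In astrocytes, with 27.1% and 29.4% of all genes, 3 of 23 kinases were called higher and 11 lower, led by Camk2g at 2.72 ± 0.13 (edgeR adjusted p = 2.34e-45). In OPCs, with 22.2% and 20.3% of all genes, 1 of 23 kinases was called higher, Mapk10, and 8 lower. All 3 calpain genes tested, calpastatin among them, were called higher in endothelial cells, where 26.9% of all genes were, with Cast at 4.03 ± 0.13 (edgeR adjusted p = 2.53e-66) and Capn2 at 2.45 ± 0.14 (edgeR adjusted p = 5.75e-37).

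The genotype comparison asked whether these genes differ between THY-Tau22 and WT mice and whether the difference depends on sex. In the UMIs of all cells of a library, no member was called in males, females, both sexes averaged, or the male minus female difference, where 0% of all 11643 genes were called. All 10 members passed the filter. At an unadjusted p under 0.05, 1 member stood in males by edgeR, with 15.4% of all genes, and 0 in females, with 1.74% of all genes. DESeq2 called 0 members in either sex. In sums over all cells, fewer cells of a type and less RNA per cell cannot be told apart. The median log2 fold change of the 10 members was -0.05 in males and 0.00 in females, against 0.01 and -0.01 over all genes. With total UMIs as the library size the male median of all genes moved by 0.191 on the log2 scale. In the males used, the median share of mitochondrial mRNA per cell was 0.889% to 1.33% in THY-Tau22 libraries and 0.351% to 0.571% in WT libraries, and its part in the male values was not tested.

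Ppp2r1a had the lowest unadjusted p in males. It lay at 27.3, 34.9 and 39.4 CPM in WT males and at 38.0, 66.8 and 79.5 CPM in THY-Tau22 males. The 2 groups overlapped by 1 THY-Tau22 library. The log2 fold change was 0.66 ± 0.31 (SE, edgeR unadjusted p = 0.0465, edgeR adjusted p = 0.318). In females it lay at 24.1, 43.6 and 81.6 CPM in WT and at 40.5, 43.7, 45.1, 47.3 and 57.5 CPM in THY-Tau22, a fold change of 0.01 ± 0.28.

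Cdk5 lay at 14.8, 23.0 and 34.95 CPM in WT males and at 33.4, 35.6 and 58.3 CPM in THY-Tau22 males. In females it lay at 25.9, 38.4 and 49.0 CPM in WT and at 25.1, 27.3, 28.8, 34.6 and 41.01 CPM in THY-Tau22. The groups overlapped in both sexes. The log2 fold changes were 0.61 ± 0.30 in males (edgeR adjusted p = 0.326) and -0.23 ± 0.27 in females (edgeR adjusted p = 1.00), and their difference of 0.84 ± 0.40 was not called (edgeR unadjusted p = 0.0476, edgeR adjusted p = 0.388). The male Cdk5 value was 0.36 without THY-Tau22 male replicate 3 and 0.39 without WT male replicate 4. In THY-Tau22 male replicate 3, the highest male library for both Cdk5 and Ppp2r1a, 30.5% of cells were in unnamed clusters, against 4.33% to 8.47% in the other 13 libraries, and the part of these cells was not tested. Without that library the male Ppp2r1a value was 0.47.

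Gsk3b, at 175, 221 and 243 CPM in WT males and 184, 192 and 225 CPM in THY-Tau22 males, gave a log2 fold change of -0.26 ± 0.23. The female value was 0.22 ± 0.20. Cdk5r1 lay at 37.3, 46.6 and 46.7 CPM in WT males and 40.1, 42.9 and 55.5 CPM in THY-Tau22 males, a difference of -0.08 ± 0.28 on the log2 scale. In females it lay at 34.7, 35.7 and 37.0 CPM in WT and at 25.1, 41.8, 45.1, 56.6 and 63.5 CPM in THY-Tau22, with a fold change of 0.40 ± 0.26 (edgeR adjusted p = 1.00), and 4 of 5 THY-Tau22 libraries lay above every WT library. Fyn gave -0.21 ± 0.29 in males and -0.25 ± 0.26 in females. For Ppp2r2b the values were -0.44 ± 0.30 and -0.06 ± 0.27, for Ppp2ca 0.07 ± 0.21 and -0.05 ± 0.19, and for Csnk1d 0.07 ± 0.23 and -0.01 ± 0.21. Gsk3a gave -0.11 ± 0.35 and 0.19 ± 0.33, and Dyrk1a -0.02 ± 0.34 and 0.34 ± 0.32. The standard errors of these values ran from 0.19 to 0.35 on the log2 scale, and differences of about 0.6, as for Ppp2r1a and Cdk5 in males, were not called.

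**Figure D3:**
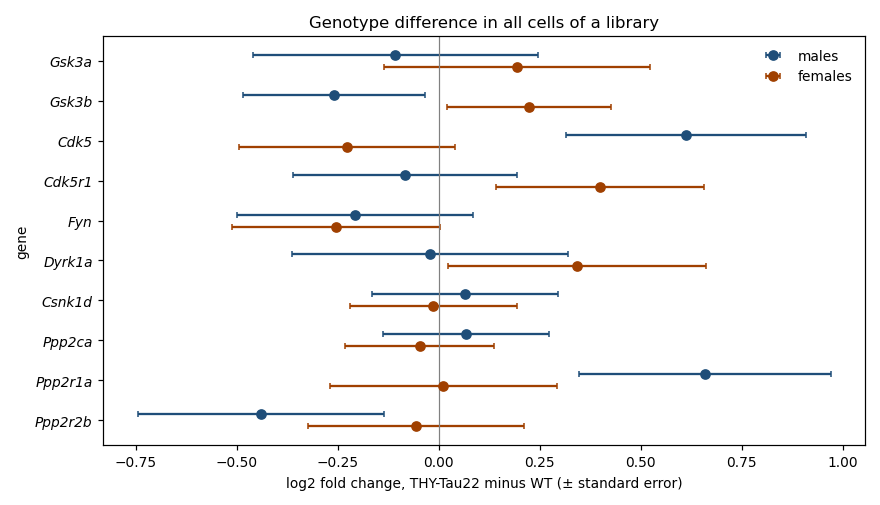
Log2 fold change of each gene in all cells of a library, THY-Tau22 minus WT (x axis, point with standard error from edgeR), in males (3 against 3) and females (5 against 3). No value was called; in males Ppp2r1a (0.66) and Cdk5 (0.61) lay farthest above 0.

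Within the 6 classes, 3 to 7 members passed the filter, and none was called in any class for males, females, both sexes or the interaction by edgeR or by DESeq2. Of all genes, 0.646% were called in microglia of males, and in oligodendrocytes the share was 0.0506% for males, 0.0253% for females and 0.43% for the interaction. Over both sexes the shares were 0.0196% in microglia, 0.0477% in neurons and 0.0813% in OPCs, and in the other contrasts they were 0%. At an unadjusted p under 0.05 by edgeR, 1 of 6 members tested stood in microglia of males, where 17.1% of all genes did, so that the members' share was near that of all genes. In females it was 1 of 4 in neurons (3.1% of all genes) and 2 of 3 in OPCs (3.17%), and over both sexes 1 of 6 in microglia (7.12%) and 1 of 3 in OPCs (6.42%).

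The microglial value was that of Ppp2r1a. It lay at 9.37, 15.4 and 27.2 CPM in WT males, on 2, 7 and 7 UMIs, and at 44.1, 59.8 and 64.5 CPM in THY-Tau22 males, on 14, 18 and 16 UMIs. Every THY-Tau22 male was above every WT male. In females the 3 WT libraries lay at 15.8, 35.03 and 44.1 CPM and the THY-Tau22 libraries at 32.0, 35.8, 36.6, 40.5 and 55.3 CPM, which overlap. The log2 fold change in males was 1.56 ± 0.45 (SE, edgeR adjusted p = 0.0867), and over both sexes it was 1.01 ± 0.30 (edgeR adjusted p = 0.456). The male value passed the threshold when the shared library was kept as a WT male, at 1.57 (edgeR adjusted p = 0.0404), and without WT female replicate 3, at 1.57 (edgeR adjusted p = 0.0376). With that library kept as a THY-Tau22 male no member was called. Its microglia held Ppp2r1a at 17.2 CPM in the table labelled WT. In the table labelled THY-Tau22 they held 27.2 CPM, below the 3 THY-Tau22 males used. Over the settings in which it was tested, the male value lay between 1.34 and 1.91, with adjusted p from 0.0376 to 0.329. DESeq2 gave no adjusted p for it in males. In these microglia, 9 of 12 neuron markers had UMIs in WT males and 11 of 12 in THY-Tau22 males, and their sum was 147 to 237 CPM and 164 to 306 CPM. Gad1, Slc17a7 and Slc32a1 were at 0 in the first and Gad2 in the second. The part of neuronal RNA in the result was not tested.

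In OPCs of females, Fyn lay at 293, 491 and 787 CPM in WT and at 92.2, 191, 250.3, 272 and 445 CPM in THY-Tau22. In males it lay at 270, 277 and 454 CPM in WT and at 185, 242 and 259 CPM in THY-Tau22, the latter on 4, 10 and 15 UMIs. The males did not overlap, but the male contrast did not reach an unadjusted p under 0.05 by edgeR. Among the females, 4 of 5 THY-Tau22 libraries lay below every WT library. The log2 fold change was -1.04 ± 0.34 in females (SE, edgeR adjusted p = 0.957) and -0.77 ± 0.27 over both sexes (edgeR adjusted p = 0.568). Of 1230 genes tested in OPCs, 3.17% had an unadjusted p under 0.05 in females. The highest value, 787 CPM, came from 21 cells with 15 Fyn UMIs. In these OPCs all 8 oligodendrocyte markers had UMIs in both female groups, and their sum was 8714 to 14642 CPM in WT and 4425 to 12467 CPM in THY-Tau22, and their part in the Fyn value was not tested. Fyn in oligodendrocytes had a median of 40.6 CPM.

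Gsk3b in OPCs of females lay at 97.8, 228 and 315 CPM in WT, on 3 to 26 UMIs, and at 267, 277, 341, 366 and 511 CPM in THY-Tau22. The groups overlapped, and the log2 fold change was 0.72 ± 0.35 (edgeR adjusted p = 0.999), or 0.47 without WT female replicate 1. Cdk5r1 in neurons of females lay at 136, 192 and 284 CPM in WT, the lowest on 3 UMIs from 25 cells, and at 256, 320, 373, 410 and 460 CPM in THY-Tau22. The log2 fold change was 0.72 ± 0.34 (edgeR adjusted p = 1.00). In males Cdk5r1 lay at 285, 327 and 336 CPM in WT neurons and at 320, 355 and 416 CPM in THY-Tau22 neurons, which overlap.

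**Figure D4:**
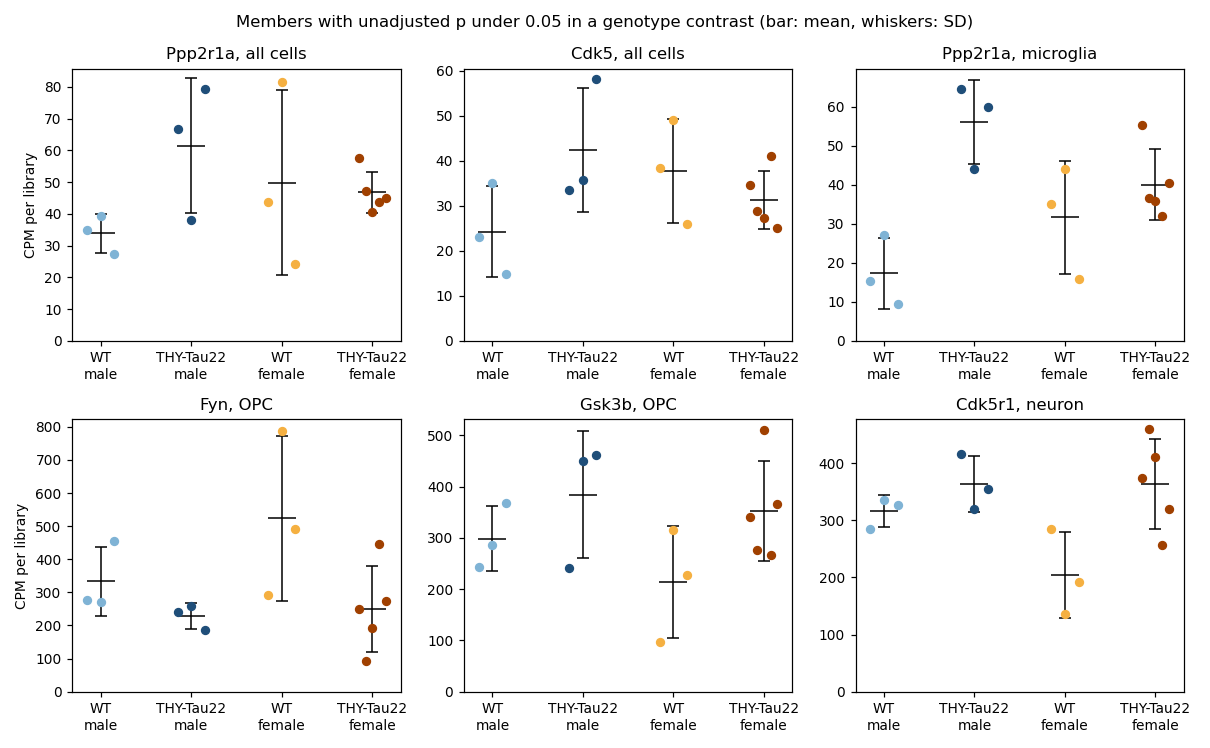
CPM per library (y axis, linear, from 0) in the 4 groups (x axis) for the genes and cells with an unadjusted p under 0.05 in a genotype contrast; points are libraries, bars the group mean and whiskers the SD. In microglia the 3 THY-Tau22 males lay between 44.1 and 64.5 CPM for Ppp2r1a and the 3 WT males between 9.37 and 27.2 CPM.

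None of the other listed kinases, phosphatases, PP2A genes and calpains was called for genotype at any level or contrast by edgeR. In all cells of males, 4 of 42 other tau kinases tested had an unadjusted p under 0.05, as had 1 of 25 PP2A subunits and regulators, 1 of 10 other tau phosphatases and 2 of 3 calpain genes, against 15.4% of all genes. Their median log2 fold changes in males were -0.17, -0.06, 0.24 and 0.31, against 0.01 over all genes. In females none of these genes had an unadjusted p under 0.05 by edgeR, against 1.74% of all genes.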

How the data were processed

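The authors ran the Drop-seq pipeline on cortical single-cell libraries, per the labels and methods, and deposited UMI counts per gene and barcode with no normalization, 3000 barcodes per table. The submitters' processing notes name mm10. The pipeline version, the annotation, and how barcodes were chosen are not given in the sources used here. The 10 genes, the lists and the tests were chosen with earlier results of these data known.

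Barcodes with 200 to 7000 detected genes were kept as cells (28530 of 48000 in 16 tables). No limit on mitochondrial counts was set. The study's limit of 5%, counted here without the mitochondrial ribosomal RNA genes, left 28439 cells and was an alternative. Cells were clustered in Python 3.11.15 with scikit-learn 1.9.0 and leidenalg 0.10.2 on 2500 variable genes, 19 principal components, 20 neighbours and resolution 0.5, leaving out the members, the other listed genes and mitochondrial genes. A cluster was named from markers if at least 3 markers of a list were detected and higher in it and the list's mean log2 fold was above 2, unless its leading genes held more markers of another class. The last threshold was set after the clusters were seen, and left 2.88% to 3.81% of cells in each group unnamed. Class names were rebuilt here, and may differ from the study's for that reason. No doublet caller was run. Cells with at least 2 UMIs from markers of a second class (32.3% of cells) were kept, and left out in an alternative.

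Cells are not replicates, so UMIs were summed per library, for all cells and for each class with at least 10 cells in a library. Sums were tested with the quasi-likelihood test of edgeR 4.0.16 in R 4.3.3, after filterByExpr and TMM scaling, with Benjamini-Hochberg adjustment over all genes tested, and called at adjusted p under 0.05 and absolute log2 fold change of at least 0.5. The genotype model had 1 mean per group over 14 libraries. The class model had the library as a block. Both were run on simulated counts with a single dispersion for all genes and libraries that differed only in size. That is simpler than the data, and no result here rests on those runs. SE is that of the fitted log2 fold change. DESeq2 1.42.0, other library sizes, filters, cells and libraries were alternatives. Nothing in the labels says more than 1 mouse per library, so p-values measure the spread between these mice. Replicate numbers follow accession order and only name a mouse.

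All 10 members were named. In a class a genotype fold change was named at an unadjusted p under 0.05. Alternatives for single fold changes in a class were added after the data were seen. Other listed genes were named if called for genotype, or, up to 3 per class, if called higher with the largest fold changes, and the 2 genes most correlated with each member were named, except where an item is not reported here. Of the listed genes, 2 PP2A symbols, Ppp2r4 and Cip2a, were not found in the tables.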

Additional observations from a re-analysis of the deposited data

Results flagged for a closer look

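In 39 combinations of a gene and a cell level, the 5 THY-Tau22 females were checked for a library apart from the rest, and 3 were found, where chance flags about 1 in 20. In microglia, THY-Tau22 female replicate 2 was lowest for Csnk1d, at 42.7 CPM on 7 UMIs with the next library at 78.8 CPM, and for Ppp2ca, at 61.1 CPM on 10 UMIs with the next at 110 CPM. In oligodendrocytes, THY-Tau22 female replicate 4 was highest for Fyn, at 76.1 CPM on 11 UMIs with the next at 37.7 CPM.

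The barcodes with under 200 genes, which entered no comparison, held 2128 UMIs of the 10 members, with each member detected. The members made up 572 CPM there and 646 CPM in the kept cells of the same 14 libraries. Cdk5r1 lay at 33.6 CPM, Fyn at 48.7 CPM and Ppp2r2b at 36.6 CPM in these barcodes.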

How the results depend on the processing

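No paired analysis was possible because the replicate numbers, given by accession, pair no mice; the class comparison had the library as a block, and the fit without it changed no count of called members by over 1.5 times. Low UMI counts limit most values, above all in neurons and OPCs, and many class calls lay near the fold threshold. The causes of the changes below were not tested unless fewer cells or genes entered.

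For genotype, the count of called members was 0 in every level and contrast, and under the alternatives run it differed only in microglia of males, at 1 (Ppp2r1a) with the shared library kept as WT male. Leaving out each library in turn gave 0 to 1 there, the 1 without WT female replicate 3. The 6 genotype fold changes in a class with an unadjusted p under 0.05 kept their sign in the alternatives in which the gene was tested. Counting the main one, Cdk5r1 in neurons was tested in 27 settings and Ppp2r1a in microglia in 26. Fyn and Gsk3b in OPCs were tested in 25. Other genotype fold changes in a class were not compared across the alternatives.

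In all cells of males, log2 fold changes turned sign with total UMIs for Gsk3a (0.0871), Cdk5r1 (0.11) and Dyrk1a (0.17); with at least 500 genes per cell for Gsk3a (0.20), Dyrk1a (0.23) and Ppp2r2b (0.25); without cells of mixed markers for Cdk5r1 (0.0837) and Fyn (0.0746); with the shared library as THY-Tau22 male for Cdk5r1 (0.0222) and Dyrk1a (0.0147), and as WT male for Csnk1d (-0.0031). In females they did so with no expression filter for Csnk1d (0.0254), with at most 5% mitochondrial mRNA for Csnk1d (0.0025) and Ppp2r1a (-0.0025), with at least 500 genes for Csnk1d (0.13), Ppp2ca (0.15) and Ppp2r1a (-0.40), with total UMIs for Ppp2r1a (-0.0556), and without mixed cells for Ppp2r2b (0.17). Leaving out each library in turn gave ranges across 0 in males for Gsk3a (-0.38 to 0.0773), Dyrk1a (-0.21 to 0.15) and Ppp2ca (-0.0487 to 0.16), and in females for Fyn (-0.42 to 0.13), Csnk1d (-0.17 to 0.12), Ppp2ca (-0.11 to 0.0569), Ppp2r1a (-0.30 to 0.48) and Ppp2r2b (-0.18 to 0.0514). Leaving out 1 library moved further values by over 1.5 times with the sign kept. In males these were Cdk5 (0.36 without THY-Tau22 replicate 3) and Gsk3b (-0.16 without WT replicate 4). Male Ppp2r2b was -0.71 without THY-Tau22 replicate 3, -0.69 without WT replicate 1, -0.28 without THY-Tau22 replicate 1 and -0.14 without WT replicate 2. Male Fyn (-0.41 to -0.0752), Cdk5r1 (-0.19 to -0.0232) and Csnk1d (0.0242 to 0.10) moved likewise. Female Cdk5r1 was 0.26 without THY-Tau22 replicate 2. Female Dyrk1a was 0.70 without WT replicate 3, 0.19 without WT replicate 1 and 0.18 without THY-Tau22 replicate 1. Female Cdk5 (-0.38 to -0.0765), Gsk3b (0.12 to 0.37) and Gsk3a (0.0741 to 0.35) moved likewise. Other settings also moved values that far, among them male Cdk5r1 (to -0.47) and Gsk3b (to -0.0803). Female Cdk5r1 (to 0.14) and Ppp2r2b (to -0.47) did so too. None was called. Over all genes, DESeq2 and edgeR called 15 and 0 in males, and 96 and 33 in microglia of males.

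Of the class fold changes called, none changed sign in the alternatives in which the gene was tested. Counting the main one, Fyn, Csnk1d and Ppp2r1a were tested in 25 settings and Ppp2r2b in 26, against 27 for Cdk5r1. A member not tested in a setting counts as not called there. Counts of members called moved as follows. In microglia the higher count of 2 was 1 with total UMIs, with at least 500 genes or without mixed cells, and 1 to 2 leaving out each library (1 without THY-Tau22 male replicate 1 or 3 or WT female replicate 3), and the lower count of 3 was 1 with at least 500 genes. In astrocytes the higher count of 2 was 1 with total UMIs, with cells named by marker UMIs or without mixed cells and 0 with at least 500 genes, and the lower count of 1 was 2 with total UMIs, all 16 tables or the shared library as WT male, and 1 to 2 leaving out each library (2 without THY-Tau22 female replicate 3 or WT female replicate 2). In oligodendrocytes the higher count of 1 was 0 with relative log expression factors, total UMIs, DESeq2 or at least 500 genes, 3 with no filter and 2 with marker UMIs, and the lower count of 4 was 2 with no filter, at least 500 genes or marker UMIs, and 2 to 4 leaving out each library (2 without WT male replicate 1). In endothelial cells the lower count of 4 was 1 with at least 500 genes. In neurons the higher count of 4 was 2 with no filter, and in OPCs that of 3 was 5 with total UMIs and 1 with at least 500 genes or without mixed cells.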
